A study of Arabidopsis thaliana with 74 samples.

Results

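The genes described here are 8 genes of iron homeostasis in Arabidopsis thaliana, taken by locus identifier from a table of RNA-seq read counts that lists 32833 genes: BHLH38 (AT3G56970), BHLH39 (AT3G56980), BHLH100 (AT2G41240), IMA1 (AT1G47400), BTS (AT3G18290), PYE (AT3G47640), OPT3 (AT4G16370) and FER1 (AT5G01600). All 8 were among the 19383 genes with a level of 1 CPM (the counts-per-million unit) in at least 2 libraries. RNA had been taken from rosettes at 27 days after sowing, in 74 libraries. Of these, 36 were epiRILs, epigenetic recombinant inbred lines in a Columbia background that inherited hypomethylated chromosome segments from a ddm1-2 ancestor. Another 36 were epiHybrids, the F1 progeny of a msCol mother and one of these epiRILs as the father. The remaining 2 libraries were msCol (lines 12 and 16), Columbia plants that carry the ms1 mutation for male sterility. It lies on a chromosome segment that stems from the accession Landsberg. Mothers of the crosses were male sterile, homozygous for ms1. Plants grown for the crosses were kept under long days. The msCol plants grown beside the lines descended from male sterile plants pollinated by heterozygous siblings, so these pools can hold homozygous and heterozygous plants. Every epiHybrid therefore carries 1 maternal genome with that segment, and the paternal epiRILs do not. Each line is represented by 1 library that pooled rosettes of 3 cultivation replications, so variation among plants within a line is not in these data, and an epiHybrid with its own father is called a family. The 36 families had been picked by the study for a wide range of leaf area divergence from the parents, and both msCol lines stand for all mothers.

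Iron is needed for photosynthesis and respiration, and free iron is toxic, so plants adjust uptake, transport and storage together. When iron is short, bHLH proteins of subgroup IVc, such as ILR3, switch on the subgroup Ib genes BHLH38, BHLH39, BHLH100 and BHLH101, as well as PYE and BTS. The Ib proteins pair with FIT in roots to activate iron uptake, and their genes also respond to low iron in leaves. BTS is an E3 ubiquitin ligase that sends IVc proteins for degradation, and IMA1 encodes a small peptide of the IRON MAN family that counteracts BTS. PYE is a bHLH repressor of transport genes. OPT3 loads iron into the phloem and takes part in signalling of the iron status of the shoot to the root. FER1 encodes a plastid ferritin, the iron store that accumulates when iron is plentiful.

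BHLH38 (chr3:21084035-21085245) and BHLH39 (chr3:21086390-21087710) are neighbours on the minus strand of chromosome 3. BHLH100 lies at chr2:17198037-17199454, OPT3 at chr4:9247302-9250343 and FER1 at chr5:227953-230051, also on the minus strand. IMA1 (chr1:17385707-17386485), BTS (chr3:6273966-6280562) and PYE (chr3:17567126-17569394) are on the plus strand. Positions are those of the TAIR10.1 annotation, which lists all 8 as protein-coding. The BHLH38 exons share 386 bases with those of PIP5K4 on the opposite strand, a gene with a median of 4.06 CPM in epiRILs. FER1 overlaps the antisense transcript AT5G01595 (median 0.619 CPM) but shares 0 exon bases with it. Whether reads were counted by strand is not stated, and the part of that shared stretch in the BHLH38 level was not tested. Of all runs of 31 bases in the exons, 3.87% of those of IMA1 and at most 0.866% of those of the other members occur elsewhere in the genome.

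Windows from 250 bases before to 50 bases after the annotated start were read from TAIR10.1 for the members, because bHLH proteins bind E-boxes and the members moved together between lines. The G-box, CACGTG on either strand, occurred in 4 of the 8 windows (50%), against 1724 of 19371 windows of the genes kept (8.90%). The wider E-box, CANNTG, which includes the G-box, occurred in 6 of 8 (75%), against 62.5% of all windows. A match is a description of the letters and not a shown binding site. Neither motif was found in the windows of FER1 and PYE, nor in that of BHLH101, the Ib gene outside the members. The 4 windows with a G-box are shown with that of FER1. They are BHLH38 (chr3:21085196-21085495), BHLH100 (chr2:17199405-17199704), BTS (chr3:6273716-6274015), OPT3 (chr4:9250294-9250593) and FER1 (chr5:230002-230301), each written 5′ to 3′ along the strand of the gene, with every G-box in capitals.
BHLH38: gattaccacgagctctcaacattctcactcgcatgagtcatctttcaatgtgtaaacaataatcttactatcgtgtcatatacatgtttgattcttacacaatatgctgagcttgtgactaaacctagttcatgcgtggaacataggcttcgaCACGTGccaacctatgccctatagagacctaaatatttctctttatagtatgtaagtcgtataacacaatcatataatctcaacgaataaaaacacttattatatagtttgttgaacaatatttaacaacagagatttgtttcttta
BHLH100: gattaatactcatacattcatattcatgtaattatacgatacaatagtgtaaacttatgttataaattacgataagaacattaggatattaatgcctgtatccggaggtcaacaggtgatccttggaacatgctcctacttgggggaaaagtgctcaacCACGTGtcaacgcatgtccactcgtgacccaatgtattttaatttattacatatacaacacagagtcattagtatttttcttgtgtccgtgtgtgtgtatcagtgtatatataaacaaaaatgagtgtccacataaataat
BTS: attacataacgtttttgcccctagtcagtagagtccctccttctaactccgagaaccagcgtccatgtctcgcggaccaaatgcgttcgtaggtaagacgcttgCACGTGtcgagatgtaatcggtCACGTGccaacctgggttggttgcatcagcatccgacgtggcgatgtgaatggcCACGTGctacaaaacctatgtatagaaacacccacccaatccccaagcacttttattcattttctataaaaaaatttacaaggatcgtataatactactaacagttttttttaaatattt
OPT3: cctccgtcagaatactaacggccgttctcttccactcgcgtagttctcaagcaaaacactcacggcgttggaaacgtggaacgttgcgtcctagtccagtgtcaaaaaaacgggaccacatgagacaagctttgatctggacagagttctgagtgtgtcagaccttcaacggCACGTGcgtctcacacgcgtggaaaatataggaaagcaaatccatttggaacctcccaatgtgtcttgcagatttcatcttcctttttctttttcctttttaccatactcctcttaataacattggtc
FER1: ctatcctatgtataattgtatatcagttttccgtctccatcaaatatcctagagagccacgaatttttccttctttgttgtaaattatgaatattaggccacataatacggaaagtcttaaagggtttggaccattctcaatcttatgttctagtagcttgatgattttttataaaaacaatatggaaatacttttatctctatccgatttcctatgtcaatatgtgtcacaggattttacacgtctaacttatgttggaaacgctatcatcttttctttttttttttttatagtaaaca
The single G-box of BHLH38 began at -97 from the annotated start, that of BHLH100 at -91 and that of OPT3 at -78. BTS held 3, beginning at -146, -124 and -70.

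Library totals were 38130406 to 42206920 counts, and scaling factors (TMM) were 0.756 to 1.09. The libraries differed in the slope of a library's log2(CPM + 1) deviations on log2 exon length, called the length slope here. It ran from -0.324 to 0.135 in epiRILs and from -0.36 to 0.197 in epiHybrids, and the labels name no batch. Least like the rest were the epiHybrids of families 368 and 340, with median correlations to the other libraries of 0.928 and 0.938. The 4 leaf markers (RBCS1A, RBCS3B, CAB1, RCA) summed to between 29304 and 119109 CPM. Of the 4 root markers, EXPA7, COBL9 and CASP1 stayed at or below 0.351 CPM in every library, while PYK10 reached 5.41 to 31.4 CPM in epiRILs and 6.01 to 25.4 CPM in epiHybrids. The 3 flower markers (AG, AP3, PI) summed to between 3.26 and 20.9 CPM.

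The members spanned a wide range of levels. Per kilobase of annotated exon, FER1 (92 ± 32.7 CPM per kb, mean ± SD, n = 36) and OPT3 (80.3 ± 19.7) were highest in epiRILs. BTS followed with 28.8 ± 10.6, and IMA1, PYE, BHLH38, BHLH100 and BHLH39 had 11.7, 10.2, 6.61, 6.27 and 4.12 CPM per kb. Of the neighbours in this order, OPT3 exceeded BTS (by 51.5 ± 12.3 CPM per kb, higher in 36 of 36 libraries) and BTS exceeded IMA1 (by 17.1 ± 6.81, higher in 35) by more than the SD of the difference over libraries. All other neighbours differed by less than that SD, such as FER1 and OPT3 (11.7 ± 49.5), with FER1 higher in 20 of 36 epiRILs. By count, BHLH100 was above BHLH39 in 33, PYE above BHLH38 in 30, BHLH38 above BHLH100 in 24 and IMA1 above PYE in 16. In epiHybrids the order was the same except that PYE (10.2) stood above IMA1 (9.62 CPM per kb), a difference again smaller than its spread.

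The Ib genes varied more between lines than almost any other gene. In epiRILs BHLH38 ranged from 1.49 CPM in line 50 over a median of 4.55 to 41.6 CPM in line 462. In epiHybrids it ranged from 0.617 over 3.33 to 36.1 CPM, again with families 50 and 462 at the ends, and msCol lines 12 and 16 had 6.84 and 4.62 CPM. The groups overlapped throughout, and both msCol libraries lay inside the range of the lines. The SD of log2(CPM + 1) of BHLH38 was 1.04 in epiRILs and 1.00 in epiHybrids, above that of 99.3% and 99.4% of the genes kept, where the median gene had 0.20 and 0.26.

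BHLH39, the neighbour of BHLH38 and a partner of FIT like it, had 0.484, 3.28 and 27.7 CPM as the lowest, median and highest value in epiRILs, and 0.386, 2.41 and 23 CPM in epiHybrids. msCol had 5.73 and 3.08 CPM. BHLH100 had 0.463, 4.55 and 42.2 CPM in epiRILs and 0.591, 3.39 and 36.9 CPM in epiHybrids. It showed the largest SD among the members (1.19 and 1.13) and stood at 11.5 and 6 CPM in msCol. Family 462 was highest for all 3 Ib genes in both groups. Values at the low end rested on few reads, down to 15 counts for BHLH39.

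IMA1 had 1.66, 7.11 and 34.7 CPM in epiRILs, with line 462 highest, and 1.53, 5.09 and 29.7 CPM in epiHybrids, with family 310 highest. In msCol it had 8.35 and 9.41 CPM. The spread of this peptide gene (SD 0.92 and 0.91) was close to that of the Ib genes and above that of 99.1% of genes in either group.

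The regulators BTS and PYE and the transporter OPT3 varied less. BTS had 65.7, 120 and 299 CPM in epiRILs and 37.3, 108 and 231 CPM in epiHybrids. Both msCol libraries, at 142 and 184 CPM, were above the median of either group. The lowest BTS values came from the epiRIL of family 454 and the epiHybrid of family 568, whose length slopes were -0.324 and -0.259. BTS is the longest of the members. Its r with the length slope was 0.20 in epiRILs (rho 0.02) and 0.49 in epiHybrids (rho 0.35, unadjusted permutation p = 0.00272). The part of length in these low values was not tested.

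PYE had 8.78, 13.3 and 25.3 CPM in epiRILs, 7.99, 12.9 and 28.3 CPM in epiHybrids, and 16.2 and 17.8 CPM in msCol. OPT3 had 135, 209 and 383 CPM in epiRILs, 125, 200 and 365 CPM in epiHybrids, and 249 and 231 CPM in msCol. Family 310 was highest for both genes in both groups. The SD of log2(CPM + 1) was 0.36 and 0.43 for PYE and 0.33 and 0.36 for OPT3.

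FER1 ran the other way. It was lowest in family 310 in both groups, at 33.7 CPM in the epiRIL and 48.1 CPM in the epiHybrid. Its median was 128 CPM in epiRILs and 131 CPM in epiHybrids. Its highest value was 227 CPM in epiRIL 158 and 312 CPM in the epiHybrid of family 568, where BHLH38 was at 0.862 CPM. msCol had 107 and 98.9 CPM of this ferritin transcript, inside the range of both other groups.

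**Figure D1:**
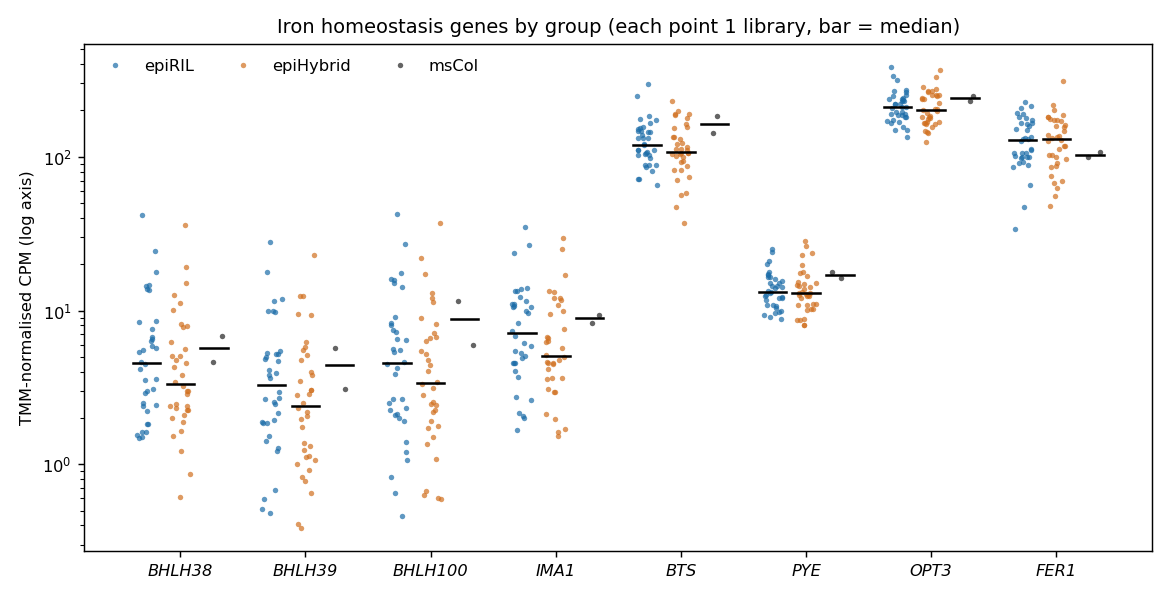
Level of each gene in TMM-normalised CPM (log axis) in 36 epiRIL, 36 epiHybrid and 2 msCol libraries. Each point is 1 library and each bar the group median. The Ib genes and IMA1 spread widely within epiRILs and epiHybrids (BHLH38 from 1.49 to 41.6 CPM in epiRILs), while the medians of epiRILs and epiHybrids lie close together.

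The question whether epiHybrids as a group differ from their fathers was tested with edgeR's quasi-likelihood test, with family as a block and Benjamini-Hochberg adjustment over 19383 genes. None of the 8 members was called (0 of 8 at an adjusted p under 0.05), where 1.31% of all genes were, and DESeq2 called 0 as well. At an unadjusted p under 0.05, 1 member passed, against 9.92% of genes. That member was IMA1, with a log2 fold change of -0.28 ± 0.14 (SE, epiHybrid minus epiRIL, unadjusted p = 0.0468, adjusted p = 0.494), and it was lower in the epiHybrid in 23 of 36 families. BHLH38 (-0.29 ± 0.16) and BHLH39 (-0.36 ± 0.19) were lower in 21 of 36 families and had adjusted p of 0.553 and 0.527. BTS had -0.16 ± 0.08 and BHLH100 -0.21 ± 0.22. PYE, OPT3 and FER1 had -0.02 ± 0.07, -0.04 ± 0.05 and 0.01 ± 0.09. The median log2 fold change was -0.19 over the members and 0.00 over all genes.

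Against the msCol mothers, none of the members was called in epiRILs (0 of 8, where 2.75% of all genes were) or in epiHybrids (0 of 8, against 1.83%). The 2 msCol libraries serve both comparisons, so these are not independent. At an unadjusted p under 0.05 the count was 0 as well, and so were the calls of DESeq2 and limma-voom. With 2 mothers the SE was wide, and for BHLH38 it was 0.95 on the log2 scale (epiRIL minus msCol, 0.32), and for OPT3, the least variable member, 0.25 (-0.15). BTS had -0.34 ± 0.37 in epiRILs and -0.47 ± 0.36 in epiHybrids, with adjusted p of 0.736 and 0.619. The direction of the Ib genes and IMA1 against msCol changed between settings, since BHLH38 in epiRILs had -0.13 with the length slope as a covariate.

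Non-additive expression was asked by comparing epiHybrids with the mid-parent, here halfway between epiRIL and msCol in log2 units. It was called for 0 of 8 members, against 0.743% of all genes, and the count was 0 also at an unadjusted p under 0.05 and with DESeq2 and limma-voom. BTS had the smallest p, with -0.30 ± 0.20 (adjusted p = 0.593). BHLH100 had -0.40 ± 0.54. FER1, at 0.19 ± 0.23, was the only member above 0. As a percent of the arithmetic mid-parent of its own family, the epiHybrid level of BHLH38 ran from -85.9% in family 568 to 88.8% in family 539, with 26 of 36 families below the mid-parent. Each of these families uses the same msCol values, so their number is a description.

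The wide spread between lines was then followed across genes. Over the 36 epiRILs, BHLH38 and BHLH39 were correlated with r = 0.98 on log2(CPM + 1) (rho 0.98 by Spearman, with a two-sided permutation p of 1e-05 for both, which is the smallest that 100000 shuffles allow). Without the 2 libraries farthest from the median of BHLH38 r was again 0.98. BHLH38 and BHLH100, on different chromosomes, had r = 0.98, and BHLH38 and IMA1 r = 0.90. In epiHybrids the same pairs had 0.97, 0.95 and 0.87. OPT3 followed IMA1 with r = 0.93 in epiRILs and 0.92 in epiHybrids, and PYE followed IMA1 with 0.89 and 0.68.

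FER1 was opposed to every other member. Its correlation with BHLH38 was -0.62 in epiRILs (rho -0.60) and -0.67 in epiHybrids (rho -0.66), and with PYE and OPT3 it reached -0.83 and -0.81 in epiRILs. The 7 pairs with FER1 lay between -0.83 and -0.58 in epiRILs and between -0.81 and -0.64 in epiHybrids. Without the 2 libraries farthest from the median they lay between -0.74 and -0.50 and between -0.76 and -0.61. The relation had exceptions in single libraries. The epiRILs of families 454 and 574 had 13.8 and 13.6 CPM of BHLH38, among the highest, beside 150 and 151 CPM of FER1, above its median, and the epiHybrid of family 539 had 19.3 CPM of BHLH38 beside 129 CPM of FER1, close to its median.

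In all, 28 pairs of members were examined in each group, each with its p adjusted over all genes tested against either gene. Of these pairs 28 passed in epiRILs and 27 in epiHybrids. Many other genes did so too: pooled over the 8 members, 23.7% of all gene pairs with a member were called in epiRILs and 22.7% in epiHybrids. The pair that did not pass was BTS and PYE in epiHybrids (r = 0.32, rho 0.42, permutation p = 0.0596, adjusted p = 0.138), which had r = 0.78 in epiRILs, and the difference between the groups was not tested. Without families 340 and 368, whose epiHybrids had 23.1 and 26.2 CPM of PYE beside 47 and 73.6 CPM of BTS, that r was 0.60 (adjusted p = 0.00204). When the 2 libraries farthest from the median of one gene of the pair, or of the other, were left out, 24 of 28 pairs passed in epiRILs. The 4 that fell short were BTS with BHLH38, BHLH39, BHLH100 and IMA1 (r = 0.44, 0.43, 0.46 and 0.52, with adjusted p of 0.123, 0.131, 0.109 and 0.0708 against BTS). The count was 24 as well without families 310, 340 and 368, with the same 4 pairs missing, and 27 without family 462. In epiHybrids 26 pairs passed without the 2 farthest libraries, where BHLH39 and PYE (r = 0.47, adjusted p = 0.0505) fell short beside BTS and PYE.

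Single families show the pattern in their own values. In family 462 the epiRIL and the epiHybrid had 41.6 and 36.1 CPM of BHLH38, 34.7 and 25.1 CPM of IMA1, and 336 and 329 CPM of OPT3, beside 47.1 and 67.9 CPM of FER1. Family 310 was less extreme in BHLH38 (14.4 and 15.1 CPM) but had 383 and 365 CPM of OPT3 and the lowest FER1 of both groups. Its BTS was 299 CPM in the epiRIL and 123 CPM in the epiHybrid, whose length slope was -0.36 against 0.0325 in the father.

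At the other end, family 176 had 1.54 and 1.22 CPM of BHLH38 beside 190 and 188 CPM of FER1. Family 50 had 1.49 and 0.617 CPM of BHLH38, and its FER1 was 100 CPM in the epiRIL and 216 CPM in the epiHybrid. Father and epiHybrid did not always match. In family 568 BHLH38 was 6.55 CPM in the father and 0.862 CPM in the epiHybrid, OPT3 was 237 and 142 CPM, and FER1 131 and 312 CPM, with BHLH38 and OPT3 lower and FER1 higher in the offspring.

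**Figure D2:**
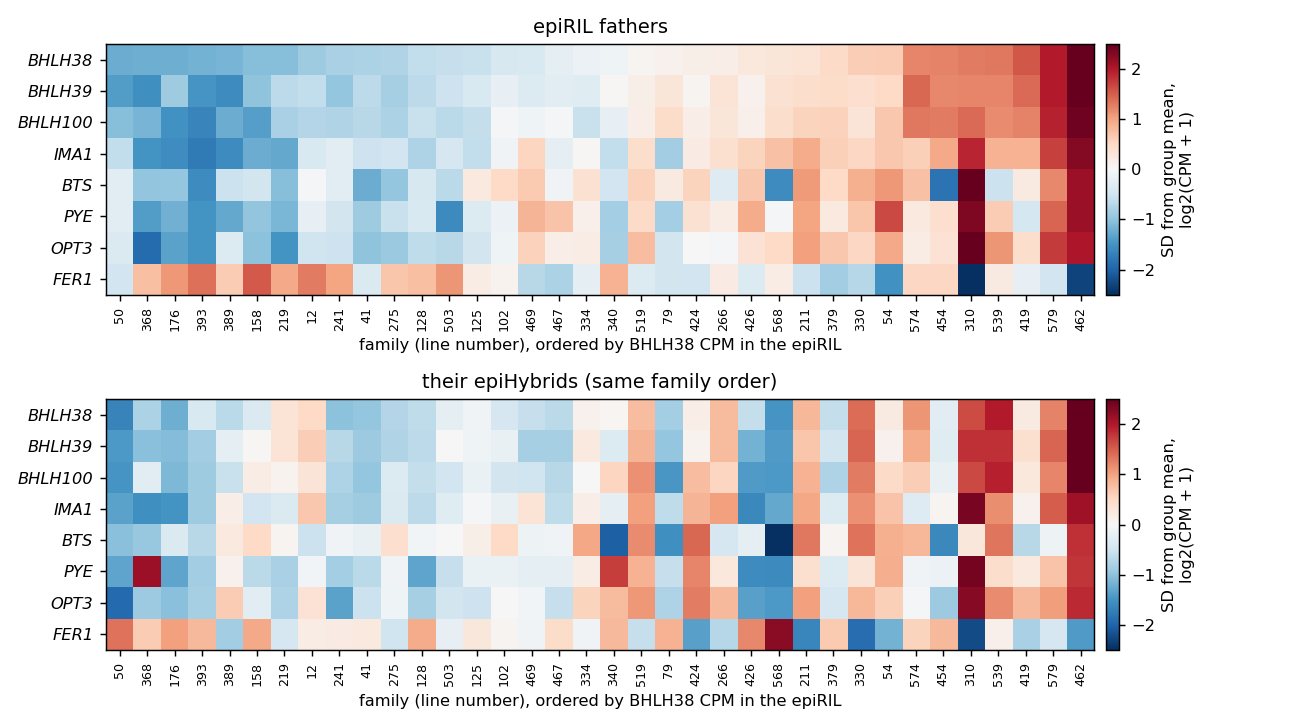
Level of the 8 genes in each of 36 epiRILs (top) and in their epiHybrids (bottom), as SD from the group mean of log2(CPM + 1), with families in 1 order, by BHLH38 in the epiRIL. The Ib genes, IMA1, BTS, PYE and OPT3 grade together from left to right in epiRILs and FER1 grades the other way, and family 462 is at the top of the Ib genes in both panels.

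The length slope moved with several of the members, and its values are therefore given beside them. In epiRILs its r was -0.59 with BHLH38 (rho -0.63, permutation p = 0.0002, two-sided), -0.56 with IMA1 and -0.41 with OPT3. In epiHybrids it was -0.23 with BHLH38 (permutation p = 0.173) and 0.49 with BTS (permutation p = 0.00272). With BTS in epiRILs it was 0.20 (rho 0.02, permutation p = 0.241). These values are among 16 such relations, 1 for each member and group, and their p-values are unadjusted.

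When each gene was first regressed on the length slope within its group, all 7 pairs with BTS were stronger in both groups and the others moved little. BTS and IMA1 went from r = 0.66 to 0.96 in epiRILs and from 0.56 to 0.96 in epiHybrids. BTS and OPT3 went from 0.76 to 0.94 and from 0.58 to 0.88. BTS and PYE in epiHybrids reached 0.56 (adjusted p = 0.00264). BHLH38 and IMA1 went from 0.90 to 0.86 in epiRILs, and BHLH38 and BHLH39 had 0.97 in either group. BHLH39 and FER1 in epiRILs went from -0.58 to -0.61, with an adjusted p of 0.052.

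**Figure D3:**
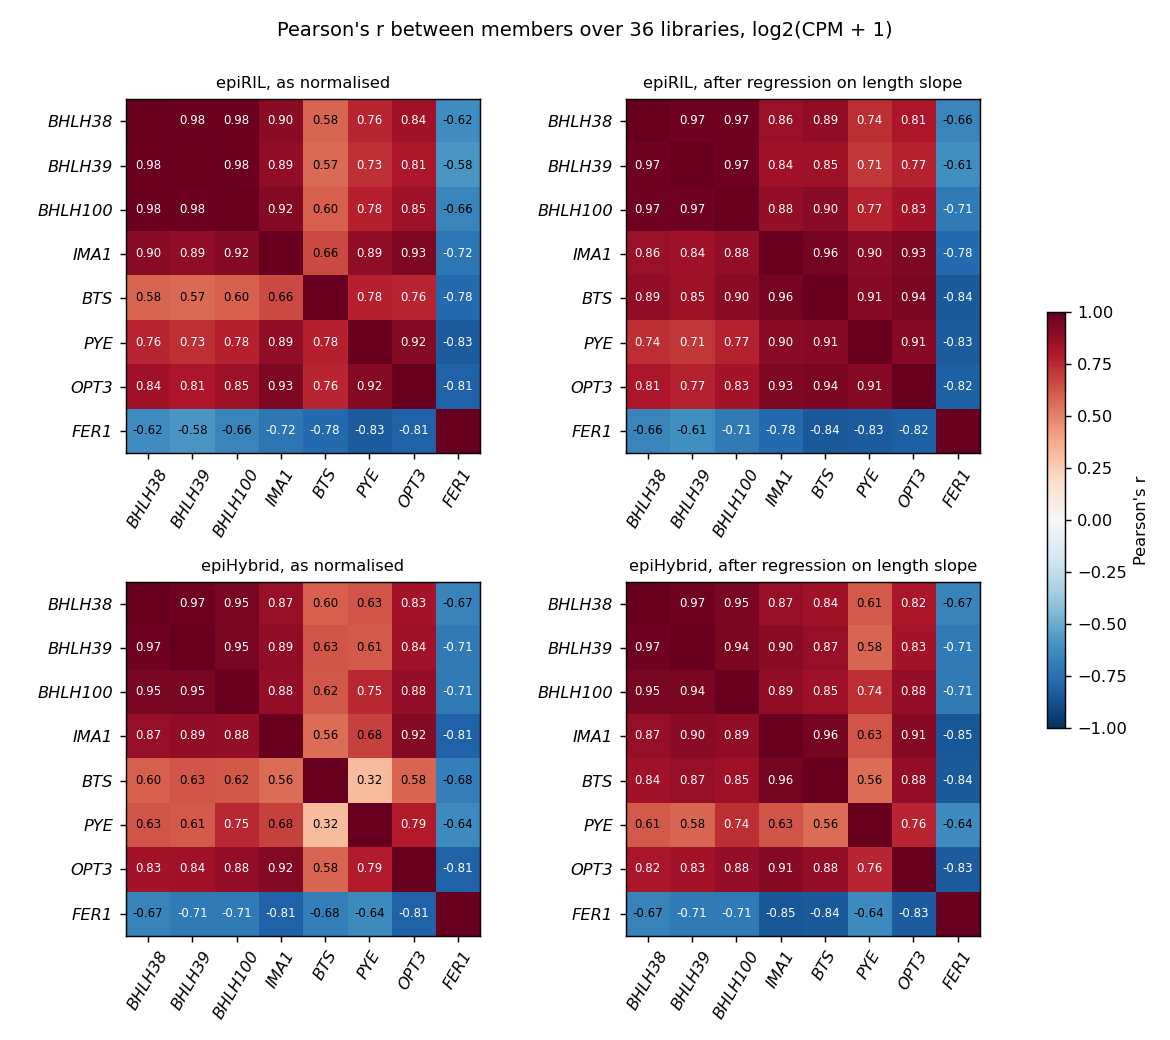
Pearson's r between each pair of members over 36 libraries, for epiRILs (top) and epiHybrids (bottom), from log2(CPM + 1) as normalised (left) and after regression on the length slope (right). Red is positive and blue negative. The row of BTS deepens from left to right, with BTS and IMA1 going from 0.66 to 0.96 in epiRILs, and FER1 is negative throughout.

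The same regression also changed how many other genes were called with a member. With BHLH38 in epiRILs, 13.8% of all genes were called at r above 0 and 15.8% at r below 0, so that the 7 other members (6 positive, FER1 negative) stood among 5750 genes. After regression 61 genes were left, 0.181% above 0 and 0.134% below 0. These 61 held all 7 other members and 10 of 38 further iron genes, together 27.9% of the genes called. Of the 5750 before regression, members and further iron genes had made up 0.435%. Members and list had been chosen with earlier results of these data known, so such shares are a description. In epiHybrids, 0.598% of genes were called above 0 and 0.294% below 0, in all 173 genes, among them the 7 other members. After regression there were 237 genes (0.681% and 0.542%), again with the 7 members. Here the share of members and further iron genes fell, from 9.83% of the 173 genes to 6.75% of the 237. The epiHybrid count depended on single families: it was 2060 without family 462 and 512 without families 340 and 368. With FER1 the number of genes called went up instead, from 4898 to 6673 in epiRILs and from 5328 to 7497 in epiHybrids. Of the genes called with FER1, the other members and further iron genes made up 0.51% and 0.413% before regression. After it they made up 0.405% and 0.347%, with the 7 other members called in both groups.

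A wider list of 41 genes of iron regulation, transport and storage was read in the same way, of which 38 passed the filter. In epiRILs 12 of these were called with BHLH38 at r above 0 and 6 at r below 0, beside 13.8% and 15.8% of all genes, and in epiHybrids 8 and 2, beside 0.598% and 0.294%. The median r over the list was 0.18 in epiRILs, where it was 0.01 over all genes, and 0.07 in epiHybrids, where it was -0.03. Most of the list was thus not called with BHLH38.

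Closest were BHLH101 and 2 genes that the list holds as IRON MAN genes like IMA1, though the annotation leaves them uncharacterised. BHLH101, the remaining Ib gene, had r = 0.95 with BHLH38 in epiRILs and 0.92 in epiHybrids, at a median of 3.06 and 2.64 CPM. AT1G47395, a gene next to IMA1, had 0.94 and 0.91, and AT2G30766 had 0.91 and 0.85. All 3 were opposed to FER1 in both groups (r between -0.77 and -0.59). The IVc genes, which act above the Ib genes, had weaker correlations. ILR3 had r = 0.12 and -0.14 with BHLH38, BHLH115 0.19 and -0.08, and BHLH34 0.20 and 0.22, none of them called. BHLH104 was called in epiRILs (0.42, adjusted p = 0.0383) but had -0.06 in epiHybrids and 0.08 in epiRILs after regression on the length slope.

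Of the 13 transport genes kept, 4 were called with BHLH38 above 0 and 3 below 0 in epiRILs (median r -0.13), beside 13.8% and 15.8% of all genes. In epiHybrids 4 and 0 were called (median 0.02), beside 0.598% and 0.294%. Those below 0 in epiRILs were the nicotianamine synthase gene NAS3 (r = -0.66) and the genes of the iron-nicotianamine transporters YSL1 (-0.70) and YSL3 (-0.43). In epiHybrids they had -0.44, -0.46 and -0.24, none of them called. After regression on the length slope none was called in epiRILs either (r = -0.58, -0.60 and -0.17, adjusted p = 0.072, 0.0531 and 0.643). ZIF1, a vacuolar transporter of nicotianamine, had r = 0.90 in epiRILs and 0.79 in epiHybrids. FRO3, a mitochondrial ferric reductase, had 0.89 and 0.73. NRAMP4, which releases iron from the vacuole, had 0.80 and 0.73, and NAS4, a nicotianamine synthase, 0.77 and 0.68. NRAMP3, the close relative of NRAMP4, had -0.20 and 0.19 and was not called. AT1G74770 and AT1G18910 stand in the list as BTS-like regulators, not transport genes, and are zinc ion binding proteins by their annotation. With BHLH38 the first had 0.67 and 0.74 and the second -0.42 and -0.27.

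A second set ran with FER1. VTL2, a vacuolar iron transporter-like gene, had r = 0.81 with FER1 in epiRILs and 0.84 in epiHybrids, and -0.59 and -0.63 with BHLH38. VTL1 had 0.67 and 0.78 with FER1. NAS3, of the same family as NAS4, had 0.75 and 0.74 with FER1, so that these 2 synthase genes lay on opposite sides. YSL1 had 0.80 and 0.53. The ferritin gene FER4 had 0.59 (adjusted p = 0.00342) and 0.36 (adjusted p = 0.0901), and FER3 had -0.03 and -0.12. Over the list, 7 genes were called with FER1 above 0 and 11 below 0 in epiRILs, beside 11.1% and 14.2% of all genes, and 7 and 8 in epiHybrids, beside 14.2% and 13.3%.

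**Figure D4:**
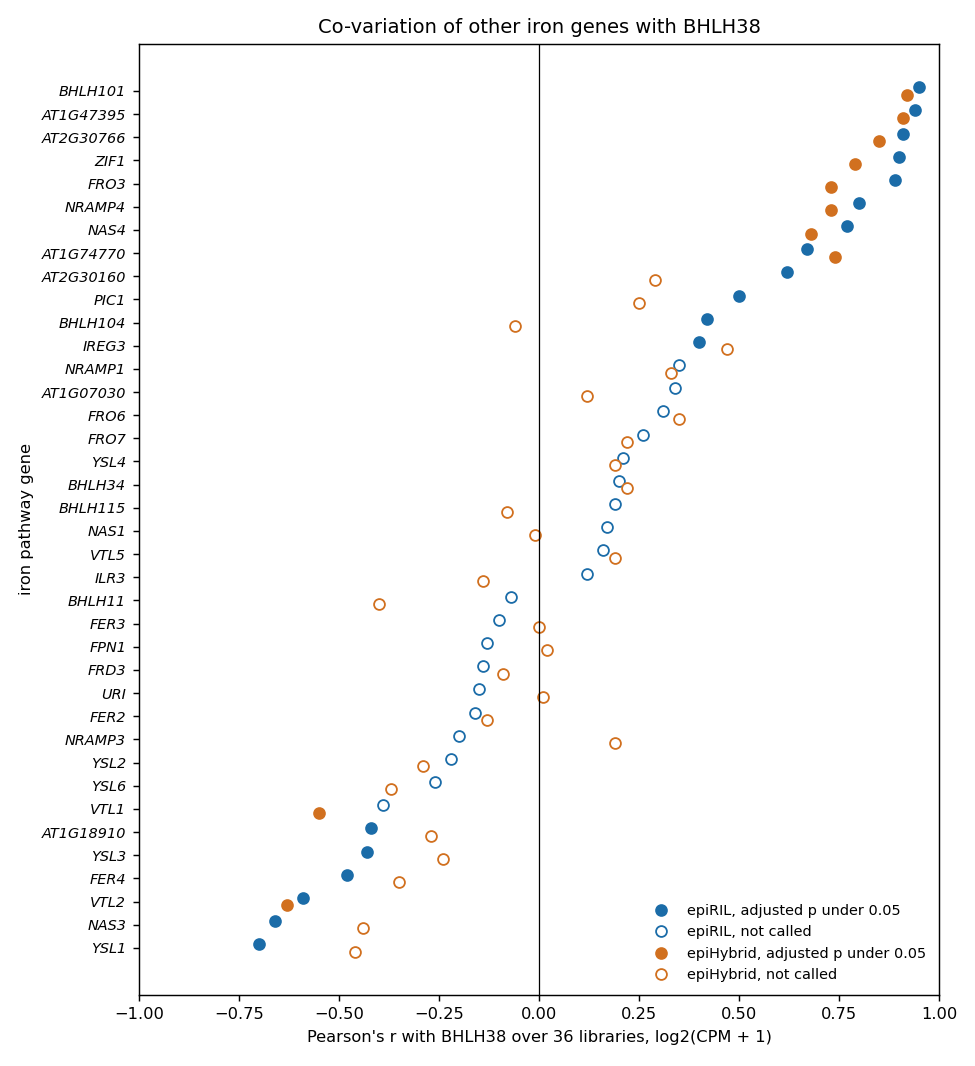
Pearson's r of 38 iron pathway genes with BHLH38 over 36 epiRIL (blue) and 36 epiHybrid (orange) libraries, filled where the adjusted p is under 0.05. Genes near the top, from BHLH101 (0.95 and 0.92) to AT1G74770 (0.67 and 0.74), are called in both groups, and VTL2 near the bottom (-0.59 and -0.63) is called in both groups on the negative side.

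Genes of root uptake were read as a check on tissue. Of 11 such genes 6 passed the filter. IRT1, the root iron transporter, stayed at or below 0.552 CPM, and FIT and FRO2 had medians of 4.44 and 4.07 CPM in epiRILs. AHA2 of the same list was far higher, at a median of 206 CPM in epiRILs and 198 CPM in epiHybrids. None of the 6 was called with BHLH38 in either group, with r between -0.40 and 0.24 in epiRILs and between -0.31 and 0.26 in epiHybrids. With FER1, 1 was called above 0 in epiRILs (FRO2, r = 0.46), beside 11.1% of all genes. In epiHybrids 2 were called with FER1 above 0 (FIT 0.49, FRO2 0.48) and 1 below 0 (AHA2 -0.45), beside 14.2% and 13.3%. The root marker PYK10 had r = 0.20 with BHLH38 in epiRILs (adjusted p = 0.385) and 0.57 in epiHybrids (adjusted p = 0.045), and its part in the epiHybrid values was not tested. The other root markers were near 0 CPM.

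For each member the 3 genes outside the 8 members with the highest mean r over both groups were named. AT1G13609, a defensin-like gene, was among them for BHLH38, BHLH39, BHLH100 and OPT3, with r = 0.97 and 0.94 with BHLH38 and a median of 21.2 CPM in epiRILs. The lncRNA AT1G07373 was among them for the 3 Ib genes, with r = 0.96 and 0.94 with BHLH38. AT2G14247, an uncharacterised gene, led for IMA1 (0.96 and 0.95) and OPT3 (0.91 and 0.95). These genes were picked for their r among the genes kept other than the members, so the values are given without a test.

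BTS and PYE had other neighbours. AT3G17770, a dihydroxyacetone kinase by its annotation, had r = 0.84 and 0.86 with BTS, followed by ORG1 (0.83 and 0.81) and AT1G74770. AT5G05250 had 0.90 and 0.94 with PYE, followed by NAS4 (0.89 and 0.85), a gene that PYE is known to repress. For FER1 the list was led by AT3G49160, annotated as a pyruvate kinase (0.88 and 0.85), before VTL2 and AT3G43670, a copper amine oxidase gene (0.86 and 0.79).

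Whether the level of a father goes with that of its epiHybrid was asked by correlation over the 36 families. It was called for 8 of 8 members, where 18.8% of all genes were. BHLH38 had r = 0.72 (rho 0.64, permutation p = 1e-05, the smallest possible, one-sided, adjusted p = 0.00071), above the r of 98.4% of all genes, where the median was 0.27. The least-squares slope of epiHybrid on father was 0.70 on the log2 scale. In family 462 the father had 41.6 CPM and the epiHybrid 36.1 CPM.

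BHLH39 (r = 0.70), IMA1 (0.69), OPT3 (0.64) and BHLH100 (0.61) came close behind. BTS had 0.57, and after regression on the length slope 0.73 (adjusted p = 0.000668). FER1 had r = 0.53 (adjusted p = 0.0123), and its rho of 0.40 had an adjusted p of 0.0566 when ranks were tested over all genes. PYE had the lowest r, 0.43 (rho 0.43, adjusted p = 0.0402).

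These correlations rested to a different degree on the extreme families. Without the 2 fathers farthest from the median of each gene, BHLH38, BHLH39, IMA1, BTS and OPT3 were still called, with r between 0.49 and 0.61. BHLH100 (r = 0.48, adjusted p = 0.05), FER1 (0.34, adjusted p = 0.126) and PYE (0.20, adjusted p = 0.25) were not. Without family 462, PYE again fell short (0.36, adjusted p = 0.0645) and 7 members were called. Without families 340 and 368 PYE had 0.67 (adjusted p = 0.00118).

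**Figure D5:**
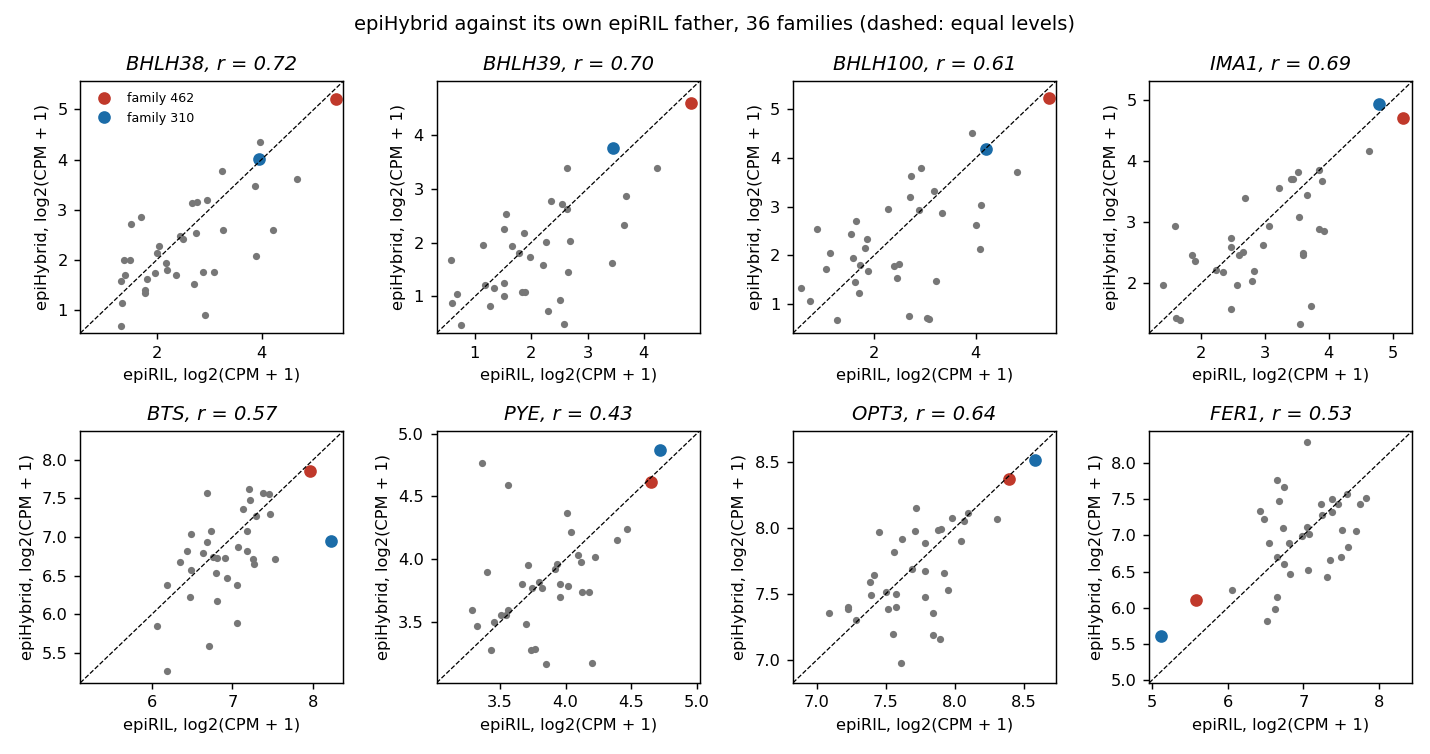
Level in the epiHybrid against that in its own epiRIL father for the 8 genes, both as log2(CPM + 1), 36 families. Families 462 (red) and 310 (blue) are marked, and the dashed line is equality. Points of the Ib genes and IMA1 rise along the line (BHLH38 r = 0.72), with family 462 at the upper end, while PYE (r = 0.43) has families far from it.

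Since all epiHybrids share a maternal genome, the variance between families was compared between the groups. No member was called (0 of 8 by permutation, where 1.22% of all genes were), and 0 of 8 reached an unadjusted p under 0.05. The ratio of the variance of log2(CPM + 1) in epiRILs to that in epiHybrids was 1.08 for BHLH38 (permutation p = 0.672), 1.05 for BHLH39, 1.12 for BHLH100 and 1.03 for IMA1. After regression on the length slope these turned below 1, to 0.74, 0.74, 0.77 and 0.85. Before regression the ratio was 0.66 for BTS and 0.72 for PYE. Its median over all genes was 0.63, so that the median gene varied more between these epiHybrid libraries than between the epiRIL libraries. The epiHybrids of families 368 and 340 were the libraries least like the rest (median correlations 0.928 and 0.938). The median ratio without these families is not reported here.

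Of the 38 other iron genes kept, 1 was called between epiRILs and msCol, beside 2.75% of all genes, and 2 between epiHybrids and msCol, beside 1.83%. They were NRAMP1 in both comparisons and FER4 in epiHybrids. NRAMP1, a manganese and iron transporter, had 49.5 and 66.8 CPM in msCol, against a median of 35.7 CPM in epiRILs and 38 CPM in epiHybrids. It was lower than in msCol in epiRILs (log2 fold change -0.69 ± 0.13, adjusted p = 0.000427) and in epiHybrids (-0.60 ± 0.13, adjusted p = 0.00548). Without msCol line 16 these were -0.45 (adjusted p = 0.387) and -0.37 (adjusted p = 0.617), so the call rests on that library. FER4 was higher in epiHybrids than in msCol, at a median of 26.3 CPM against 15.5 and 13.6 CPM (0.90 ± 0.25, adjusted p = 0.0424). Without msCol line 12 or 16 the log2 fold change was 1.00 ± 0.36 or 0.80 ± 0.35, with an adjusted p of 0.261 or 0.481.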

How the data were processed

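RNA-seq read counts of 74 rosette libraries were used (36 epiRIL, 36 epiHybrid, 2 msCol). The authors trimmed reads with Trim Galore, aligned them to TAIR10 with TopHat2 and counted them per gene with featureCounts. Versions, strand use and the handling of multiply aligned reads are not given in the sources used here. The deposited values are raw counts, not normalised, and totals were 38130406 to 42206920 per library. At the median depth 1 count is 0.0245 CPM, and counting error alone, without molecular identifiers, understates technical error.

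The filter asked for 1 CPM or more in 2 or more libraries, which 19383 genes passed (99.94% of counts), and scaling was by TMM. Differential expression used edgeR 4.0.16 (quasi-likelihood, R 4.3.3) with the line number as a block for epiHybrid against epiRIL, and 1 model of 3 groups without a block for contrasts with msCol. SE is the fold change divided by the square root of F. Correlations and variance ratios used log2(CPM + 1) and 100000 permutations. All adjusted p-values are Benjamini-Hochberg over all genes kept, at 0.05. Scripts were tested on simulated data. DESeq2 1.42.0, limma 3.58.1, other filters, size factors, pseudocounts and left-out libraries were alternatives.

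The pairing comes from parentage. Deviations from the group means correlated by 0.424 ± 0.277 (SD, n = 36) between an epiHybrid and its own father, above 0.1 in 30 families, and by -0.00922 with other fathers. Positions and sequences are from RefSeq's TAIR10.1, which matched 32548 identifiers. The count table holds no coordinates.

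Named genes are the members, the genes of the lists, and for each member the 3 genes outside the members with the highest mean r over both groups. Members and lists were chosen with earlier results of these data known.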

Additional observations from a re-analysis of the deposited data

How the results depend on the processing

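The number of genes called between epiHybrids and epiRILs was 254, and 165 without the family block (no replicate block), or 399 with the length slope as a covariate. For epiRILs against msCol (533) it was 1016 with that covariate, 896 without families 340 and 368, 808 with DESeq2 and 128 to 220 with 1 msCol library left out. For epiHybrids against msCol (355) these were 728, 732, 638 and 85 to 126, and for the mid-parent (144) 344, 335, 398 and 45 to 72. A lone msCol library was assumed to vary like the other groups. The block changed no call of a member, and 0 of 8 were called in these contrasts under every setting run.

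Some fold changes of members turned sign, none of them called. FER1 between epiHybrids and epiRILs was -0.01 without family 462, and also without families 310, 340 and 368. In epiRILs against msCol, the length slope covariate gave -0.13 for BHLH38, -0.27 for BHLH39 and -0.36 for IMA1, and limma-voom -0.24, -0.41 and -0.36. Leaving out 1 msCol library gave -0.19 to 0.70 for BHLH39, -0.66 to 0.27 for BHLH100 and -0.05 to 0.12 for IMA1. In epiHybrids against msCol, BHLH38 had -0.31 with the covariate and -0.54 with limma-voom. With 1 msCol library left out it had -0.24 to 0.33, BHLH39 -0.53 to 0.36 and BHLH100 -0.93 to 0.00. Against the mid-parent these ranges were -0.27 to 0.02 for BHLH38 and -0.44 to 0.01 for BHLH39. Variance ratios after regression on the length slope were 0.74, 0.74, 0.77 and 0.85 for BHLH38, BHLH39, BHLH100 and IMA1, and 0.99 for BHLH38 and BHLH39 with a pseudocount of 0.1.

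Father correlations were called for 3637 genes, for 6102 without families 340 and 368, 6363 without 310 as well, 1043 without the 2 farthest fathers (5 of 8 members) and 1935 by Spearman. Genes called with BHLH38 in epiRILs went from 5750 to 61 after regression on the length slope, and pathway genes from 18 to 10. In epiHybrids they went from 173 to 512 without families 340 and 368, 2060 without 462, 114 without 310, 340 and 368, 1923 without the 2 farthest libraries and 3359 by Spearman. The causes were not tested. Settings with families 462 or 310 left out were chosen after seeing the data. Depth limits the Ib genes in the lowest libraries, down to 15 counts for BHLH39.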

Other observations

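Other small gene lists were read against BHLH38. In epiRILs 13.8% of all genes were called above 0 and 15.8% below 0. After regression on the length slope the genes called went from 5750 to 61, and 0 of the copper, clock and leaf marker genes were called in either group. Of 6 copper genes, 0 were called above 0 and 2 below 0 in epiRILs, and 0 in epiHybrids. Those 2 were SPL7, the regulator of copper responses, with r = -0.60, and FSD1, an iron superoxide dismutase, with -0.43, and the copper transporter gene COPT2 had 0.10 in epiRILs and -0.25 in epiHybrids. Of 6 clock genes 3 were called below 0 in epiRILs (PRR9 -0.58, PRR7 -0.53, GI -0.47) and 0 in epiHybrids. Rosettes had been harvested within a few hours, and the hour of each line is not given in the sources used here, so the part of harvest time was not tested. Of 4 leaf markers 2 were called with BHLH38 above 0 in epiRILs, CAB1 (r = 0.56, adjusted p = 0.00705) and RBCS3B (0.43, adjusted p = 0.0324), while RBCS1A had 0.39 and RCA -0.11. In epiHybrids 0 were called. With OPT3 the median r of the 4 was 0.57 in epiRILs and 0.54 in epiHybrids, where over all genes it was -0.02 and -0.03. With FER1 3 of the 4 were called below 0 in epiRILs (median -0.57), beside 14.2% of all genes. In epiHybrids 2 were called below 0 with FER1 (median -0.40), beside 13.3%. These values with OPT3 and FER1 are those before regression on the length slope. The part of leaf content in the members' relations was not tested.

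Genes around IMA1 were looked at after their values were seen, because 2 lncRNAs among the closest genes of the Ib family lie nearby. Within 10 kb of IMA1 the annotation lists 9 other genes, of which 6 passed the filter. AT1G47395 (1877 bp away), AT1G07367 (2504 bp) and AT1G07373 (5889 bp) had r = 0.96, 0.92 and 0.92 with IMA1 in epiRILs and 0.95, 0.89 and 0.94 in epiHybrids. The other 3 had lower values, AT1G47380 (9616 bp) with 0.53 and 0.68, SDH5 (9033 bp) with 0.26 and 0.37, and AT1G47410 (7587 bp) with 0.05 and 0.03. Both lncRNAs were weakly expressed, at medians of 0.805 and 1.89 CPM in epiRILs.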
